A study of Homo sapiens with 19 samples.

Results

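The 40 genes described here encode proteins that carry a cell through mitosis: kinases and cyclins of mitotic entry, checkpoint and anaphase proteins, the chromosomal passenger complex, kinetochore proteins, kinesins, spindle proteins, cytokinesis proteins, chromosome proteins and the transcription factor FOXM1. They were chosen by name, with earlier results of these data known, as the rows of these 40 symbols in 3 tables of RNA levels, 1 per lymphoma cell line. All 40 were found in each table, among 25365 genes for OCI-LY10, 25267 for TMD8 and 25266 for SUDHL2. The lines derive from diffuse large B-cell lymphoma of the activated B-cell-like (ABC) subtype. In the groups labelled shEGR1#8 and shEGR1#9, cells carried a short hairpin RNA against EGR1, a zinc-finger transcription factor of the early response to B-cell receptor signals. In the control group they carried the control hairpin shsc4. Every group, the control included, received 20 ng/ml doxycycline for 2 days to switch on its hairpin. OCI-LY10 has 3 libraries per group, 9 in all, and the TMD8 and SUDHL2 labels have 1 library per group, which makes 15 RNA libraries of 19 samples. The other 4 samples, from EGR1 chromatin immunoprecipitation, were not analysed here. Values are FPKM, sequenced fragments scaled to gene length and to library size.

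Genes of mitosis are transcribed late in the cell cycle, so that their RNA is low in resting cells and high in cells in G2 and mitosis. In resting cells a complex of RB-like proteins, E2F4 and the MuvB core, known as DREAM, holds them silent, and in G2 the MuvB core with MYBL2 and FOXM1 switches them on. The DREAM complex meets its targets at the cell cycle homology region, a short promoter element. The factor NF-Y binds nearby CCAAT boxes. Fast-dividing lymphomas carry high levels of these RNAs, and MKI67 protein (Ki-67) is the usual marker of dividing cells in lymphoma tissue.

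The promoters of the 40 genes were searched for these elements as a description. They are known elements of mitosis gene promoters, so a high share among genes chosen as mitosis genes was likely beforehand. RefSeq promoter windows (GRCh38.p14, 250 bases before to 50 after the start) were listed for 34 of the 40 genes. The cell cycle homology region was searched as TTTGAA or TTCGAA on both strands, and TTCGAA reads the same on either strand. A gene with several listed windows counted if any of them held the element. The region occurred in 27 of the 34 genes (79.4%), against 17.5% of 15842 protein-coding genes. In 25 of those 27 genes a copy began within 100 bases of the start. The CCAAT box (CCAAT, or ATTGG on the other strand) occurred in 28 of 34 genes (82.4%), against 42.1% of protein-coding genes. Both elements were present in 23 genes (67.6%), against 7.28%. Of 95 other mitosis genes, 79 had a window. Among these, 49 had the homology region (62.0%), 65.8% the CCAAT box and 40.5% both, so the elements were not particular to the 40. Genes of DNA replication are transcribed earlier in the cycle. Of 43 with a window, 28 had the CCAAT box (65.1%) and 4 the homology region (9.30%). The binding element of EGR1 itself, searched as GCGGGGGCG or GCGTGGGCG on both strands, occurred in 2 of the 34 mitosis genes (5.88%), MKI67 and AURKB, against 9.71% of protein-coding genes. These are matches of letters in short windows and not measured binding sites.

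**Figure D1:**
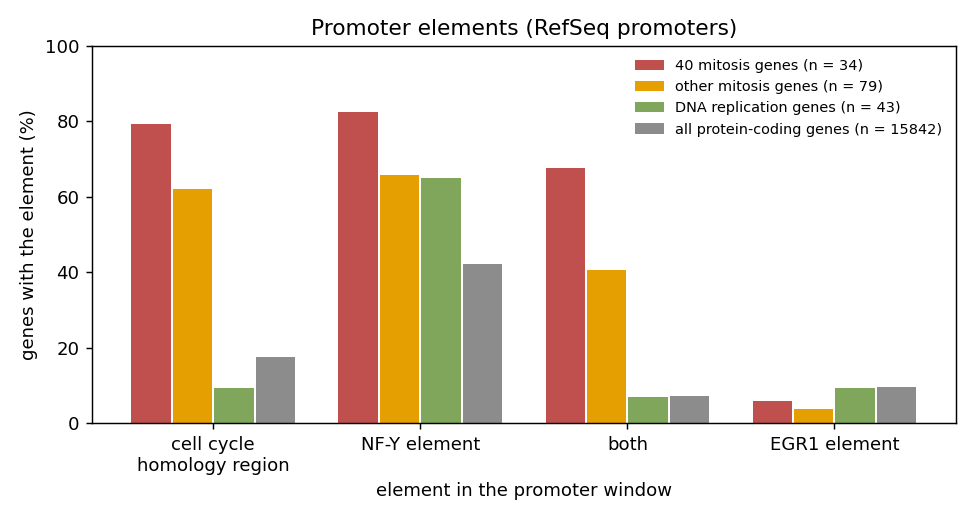
Share of genes (%, vertical axis) whose promoter window holds each element, for the mitosis genes, 95 other mitosis genes (79 with a window), 50 DNA replication genes (43 with a window) and all protein-coding genes; the NF-Y element is the CCAAT box. The homology region stands in 79.4% of the mitosis genes, 62.0% of the other mitosis genes and 9.30% of the replication genes. The EGR1 element stands in 5.88% of the mitosis genes.

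The promoters of 5 genes are shown because the results below turn on them: TOP2A, which fell in OCI-LY10, CDK1, NUF2 and HMMR, which differed most under the TMD8 label, and MKI67, which went the other way there. Each runs from 250 bases before the start to 30 bases into the gene, in the direction of transcription, and comes from RefSeq (GRCh38.p14). TOP2A lies at chr17:40417867-40418146 (minus strand), CDK1 at chr10:60778081-60778360 (plus), NUF2 at chr1:163321704-163321983 (plus), HMMR at chr5:163460382-163460661 (plus) and MKI67 at chr10:128126394-128126673 (minus). Capitals mark the cell cycle homology region, the CCAAT box in either direction and, in MKI67, the EGR1 element on the other strand.
TOP2A: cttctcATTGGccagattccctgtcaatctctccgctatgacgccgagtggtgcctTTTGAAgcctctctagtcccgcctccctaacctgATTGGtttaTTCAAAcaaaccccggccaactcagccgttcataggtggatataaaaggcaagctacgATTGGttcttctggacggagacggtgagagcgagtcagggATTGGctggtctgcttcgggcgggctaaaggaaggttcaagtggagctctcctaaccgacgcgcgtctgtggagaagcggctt
CDK1: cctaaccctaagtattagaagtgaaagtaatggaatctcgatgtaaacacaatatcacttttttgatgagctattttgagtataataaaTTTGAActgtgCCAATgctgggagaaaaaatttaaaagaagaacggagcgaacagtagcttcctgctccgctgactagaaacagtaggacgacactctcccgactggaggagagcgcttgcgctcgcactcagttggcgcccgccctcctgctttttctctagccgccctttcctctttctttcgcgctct
NUF2: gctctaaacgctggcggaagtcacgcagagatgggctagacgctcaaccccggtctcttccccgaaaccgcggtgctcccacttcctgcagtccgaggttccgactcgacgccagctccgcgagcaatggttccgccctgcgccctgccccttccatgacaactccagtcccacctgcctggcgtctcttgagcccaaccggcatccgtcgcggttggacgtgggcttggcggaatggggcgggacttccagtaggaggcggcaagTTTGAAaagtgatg
HMMR: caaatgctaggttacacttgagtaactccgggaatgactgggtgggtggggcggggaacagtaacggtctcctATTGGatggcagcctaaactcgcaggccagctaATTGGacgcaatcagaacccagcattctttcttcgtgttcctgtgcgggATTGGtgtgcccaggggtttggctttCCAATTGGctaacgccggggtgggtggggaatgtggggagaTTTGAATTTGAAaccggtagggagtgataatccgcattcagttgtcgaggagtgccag
MKI67: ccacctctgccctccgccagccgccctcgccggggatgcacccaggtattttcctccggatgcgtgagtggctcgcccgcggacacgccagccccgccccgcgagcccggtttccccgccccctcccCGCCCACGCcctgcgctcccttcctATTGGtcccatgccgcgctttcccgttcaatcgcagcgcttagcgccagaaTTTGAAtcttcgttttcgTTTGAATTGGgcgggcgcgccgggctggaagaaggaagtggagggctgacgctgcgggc
TOP2A held 4 CCAAT boxes and 2 homology regions, all upstream of the start. HMMR had 2 homology regions end to end, the nearer beginning at position -22, and 5 CCAAT boxes, of which 2 share bases. NUF2 had no CCAAT box in the window and a homology region at position 17, inside the transcript. CDK1 had a region at -161 and a CCAAT box at -150 of the start shown, and its second listed start, further downstream, had a region at -13. In MKI67 the region at -29 shares a base with a CCAAT box, and the EGR1 element lay at -123.

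Some facts of the libraries bear on every result. EGR1 RNA, which the hairpins aim at, did not fall with the shEGR1 labels in OCI-LY10. It read 10.04, 11.4 and 20.5 FPKM in those labelled shEGR1#8, 10.8, 11.8 and 22.7 FPKM in those labelled shEGR1#9, and 8.57, 9.59 and 12.3 FPKM in control libraries (log2 difference of both labels from control 0.42, limma adjusted p = 0.349). Under the TMD8 label it read 10.8 (shEGR1#8) and 9.95 FPKM (shEGR1#9), against 7.31 FPKM in the control, and under SUDHL2 13.7 and 15.4 FPKM, against 17.0 FPKM. Libraries are therefore named by their labels, and every direction below rests on labels that the EGR1 level goes against under OCI-LY10 and TMD8. The TMD8 and SUDHL2 libraries resembled each other (correlation across 9529 genes 0.919 to 0.977) nearly as much as libraries within a label (0.956 to 0.987), whereas OCI-LY10 libraries correlated with them at 0.749 to 0.810. The TMD8 control stood apart from the 2 hairpin libraries of that label: short RNAs took 36.3% of its FPKM, against 61.5% and 58.0% in theirs. All 8 B-cell markers were present in every library. In OCI-LY10 CD74 and CD79A rose, and the list summed to 3374 to 4077 FPKM over the 6 shEGR1 libraries, against 2699 to 2939 FPKM in control. The other 6 did not pass, and 3 of the 8 had fitted differences below 0, 2 of them at an unadjusted p under 0.05. The median difference of the list was 0.03. Under TMD8, MS4A1 was past 1.5-fold lower (-1.43 and -1.15) and KLRD1, an NK cell marker, higher (1.36 and 0.60), and under SUDHL2 COL1A1 and CDH1 were past 1.5-fold higher. Of 17 T and NK cell markers, 3 passed the filter in OCI-LY10, and CD247 and PRF1 rose with the shEGR1 labels, as did 1 of 10 myeloid markers, CD68. The T and NK list summed to 34.1 to 41.2 FPKM over the 6 shEGR1 libraries, against 22.4 to 25.6 FPKM in control, with CD3G, CD2, CD5, CD4, CD28, ZAP70, KLRD1, NKG7 and GNLY listed at 0 in all 9 libraries. CD3E read at most 0.118 FPKM, CD3D was above 0 only in the shEGR1#9 libraries, up to 0.199 FPKM, and LCK passed the filter with CD247 and PRF1. The myeloid list summed to 1.38 to 2.07 FPKM over the 6 shEGR1 libraries and to 0.674 to 1.17 FPKM in control, with LYZ, MPO and ITGAM listed at 0. Of 10 fibroblast and epithelial markers, 1 passed the filter, EPCAM, and it missed the threshold. The part of these markers in the results was not tested.

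In OCI-LY10, BIRC5 and TOP2A fell in libraries labelled shEGR1, none of the 40 mitosis genes rose, and 38 did not pass the test. Across all 10612 genes tested, 8.56% passed, 2.71% that fell and 5.84% that rose (limma on log2(FPKM + 1), both hairpin labels against control, Benjamini-Hochberg adjusted p under 0.05). That split of 620 genes higher and 288 lower became 444 and 367 with quantile normalization and 492 and 407 with median-ratio scaling. The 2 of 40 that fell are 5.0% of the mitosis genes, and without control replicate 1 or 2 the count was 0, when 0.801% and 0.707% of all genes fell. At an unadjusted p under 0.05, 7 mitosis genes were lower and 0 higher, beside 9.28% of all genes lower and 16.8% higher. The fitted differences were small and mostly of one sign: 35 of the 40 lay below 0, beside 44.2% of all genes tested (the other 55.8% lay above 0). Their median log2 difference was -0.09 (quartiles -0.19 and -0.03), against 0.03 (quartiles -0.08 and 0.15) over all genes, and it was -0.10 with quantile normalization and -0.12 with median-ratio scaling. In 8 of the 40 genes all 6 shEGR1 libraries lay below all 3 controls, and in 0 all lay above, beside 8.22% and 12.9% of all genes (21.1% in either direction). Mitosis genes vary together and are not replicates of each other. In RNA from whole cultures, fewer cells in mitosis and less of these RNAs per cell cannot be told apart.

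**Figure D2:**
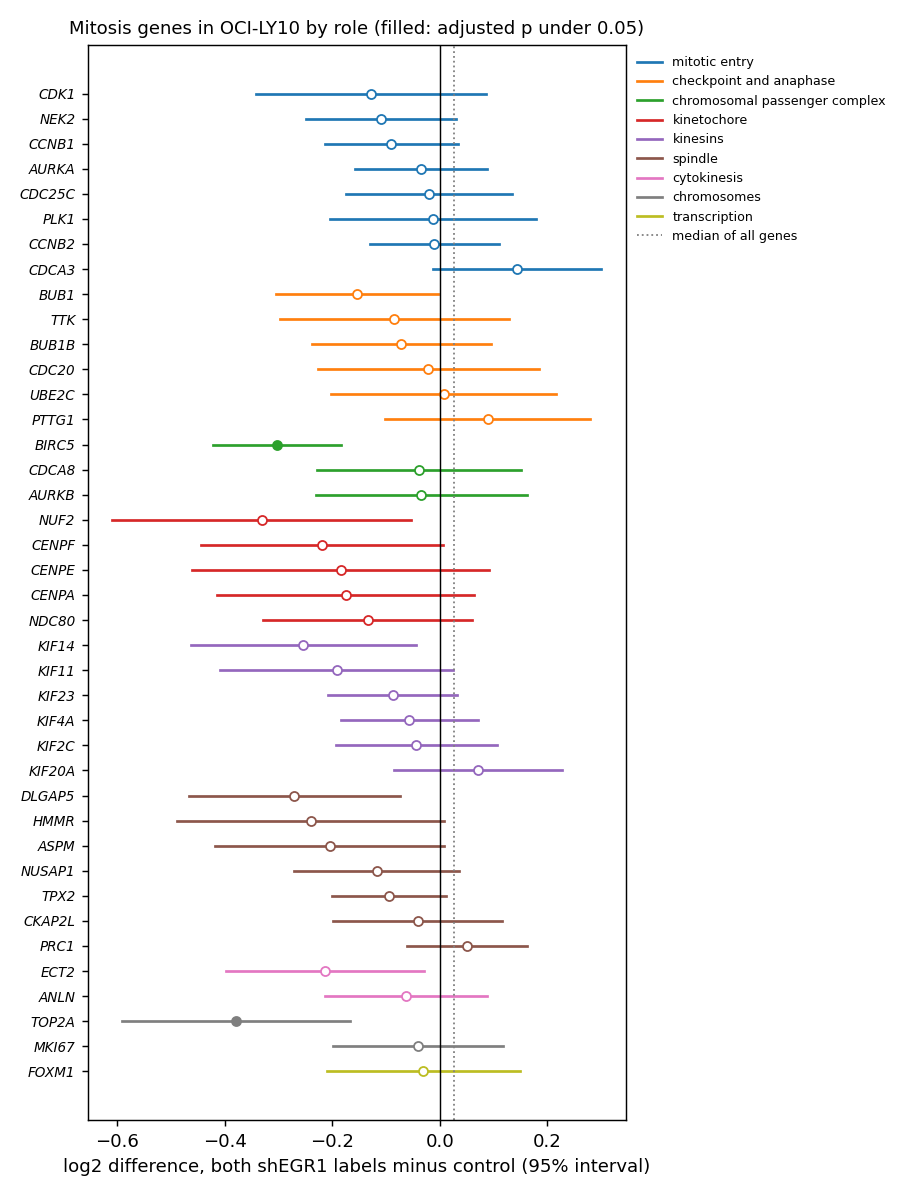
Fitted log2(FPKM + 1) difference of both shEGR1 labels from control in OCI-LY10 (horizontal axis) with its 95% interval for each of the 40 genes, coloured by role; filled points passed limma at an adjusted p under 0.05, and the dotted line is the median of all genes tested, 0.03. BIRC5 at -0.30 and TOP2A at -0.38 are the filled points, and 35 of 40 points lie left of 0.

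BIRC5, or survivin, belongs to the chromosomal passenger complex, which corrects wrong attachments of chromosomes to the spindle, and also to the family of apoptosis inhibitors. BIRC5 read 69.5, 68.9 and 65.04 FPKM in libraries labelled shEGR1#8, 72.6, 67.7 and 65.7 FPKM in those labelled shEGR1#9, and 87.9, 84.5 and 80.8 FPKM in control libraries. All 6 shEGR1 libraries lay below all 3 controls, with a gap wider than the spread inside any group. The log2 difference was -0.30 (SE 0.0525, limma adjusted p = 0.0102), and BIRC5 also fell with each label alone (shEGR1#8 -0.31, limma adjusted p = 0.0243; shEGR1#9 -0.30, limma adjusted p = 0.0290). It was the only 1 of the 40 to fall with either label, beside 1.62% (shEGR1#8) and 1.54% (shEGR1#9) of all genes tested. Of all genes, 5.33% and 5.09% passed in either direction with these labels, and 3.71% and 3.55% rose. Without control replicate 1 or 2 the call was lost (limma adjusted p = 0.0633 and 0.0546). The call with shEGR1#8 alone was lost without any 1 control (limma adjusted p = 0.103, 0.0899 and 0.0715) or shEGR1#9 replicate 2 (0.0538). The call with shEGR1#9 alone was lost without any 1 control (limma adjusted p = 0.121, 0.105 and 0.0734) or any 1 shEGR1#9 library (0.0501, 0.120 and 0.125). The kinase of the complex, AURKB, had group means of 46.3 ± 7.32 (shEGR1#8), 46.6 ± 1.91 (shEGR1#9) and 47.5 ± 1.83 FPKM (control; SD, n = 3 each), and its borealin subunit CDCA8 had 37.1 ± 5.55, 35.5 ± 0.498 and 37.2 ± 2.24 FPKM. Their log2 differences, -0.03 and -0.04, did not pass (limma adjusted p = 0.826 and 0.793).

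TOP2A, the topoisomerase that untangles sister chromatids and the target of etoposide and doxorubicin, had the lowest fitted difference of the 40. It read 131, 127 and 99.2 FPKM with shEGR1#8, 124, 119 and 113 FPKM with shEGR1#9, and 142, 167 and 154 FPKM in controls. The groups did not overlap, and the lowest value, in shEGR1#8 replicate 3, lay well under the rest. TOP2A fell by 0.38 on the log2 scale (SE 0.0937, limma adjusted p = 0.0393), and the difference with each label alone was the same size without passing (limma adjusted p = 0.0826 for shEGR1#8 and 0.0906 for shEGR1#9). Its call was lost without any 1 of the controls (limma adjusted p = 0.0776, 0.159 and 0.141 without replicate 1, 2 and 3) or any 1 of the shEGR1#9 libraries (0.0612, 0.0825 and 0.0872). It was also lost with no filter on low values (0.0674) and with quantile normalization (0.0565). MKI67, which coats mitotic chromosomes and keeps them apart, read 54.6, 56.9 and 59.3 FPKM with shEGR1#8, 54.6, 52.9 and 62.9 FPKM with shEGR1#9, and 54.1, 59.1 and 62.3 FPKM in controls. Its 3 groups overlapped throughout (log2 difference -0.04, 95% interval -0.20 to 0.12, limma adjusted p = 0.745).

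None of the 8 genes of mitotic entry passed in OCI-LY10, and their median log2 difference was -0.03. CDK1, the kinase whose activity starts mitosis, read 68.2, 63.9 and 49.9 FPKM with shEGR1#8, 64.4, 59.2 and 56.0 FPKM with shEGR1#9, and 63.9, 68.0 and 65.1 FPKM in controls (log2 difference -0.13, 95% interval -0.34 to 0.09, limma adjusted p = 0.420). The highest CDK1 value of all was in an shEGR1#8 library, and so was the lowest. Its partner CCNB1, cyclin B1, read 151, 136 and 133 FPKM with shEGR1#8, 146, 134 and 137 FPKM with shEGR1#9, and 148, 145 and 152 FPKM in controls (difference -0.09, interval -0.21 to 0.03, limma adjusted p = 0.331). CCNB1 was below all controls in 4 of the 6 shEGR1 libraries. PLK1, the kinase that drives centrosome maturation and activates CDK1, read 134, 129 and 166 FPKM with shEGR1#8, 129, 135 and 149 FPKM with shEGR1#9, and 145, 144 and 135 FPKM in controls, and the groups overlapped (difference -0.01, interval -0.20 to 0.18, limma adjusted p = 0.937). AURKA, the centrosome kinase that activates PLK1, stood at 44.1, 42.0 and 38.5 FPKM with shEGR1#8, 42.6, 41.7 and 40.8 FPKM with shEGR1#9, and 42.7, 41.1 and 44.1 FPKM in controls, again overlapping (difference -0.03, interval -0.16 to 0.09, limma adjusted p = 0.715). CDCA3, a trigger of WEE1 kinase degradation at mitotic entry, had the highest fitted difference of the 40, 0.14 (interval -0.01 to 0.30, limma adjusted p = 0.226). It read 64.9, 63.8 and 75.3 FPKM with shEGR1#8, 60.6, 64.3 and 70.4 FPKM with shEGR1#9, and 58.8, 61.7 and 59.5 FPKM in controls, so that 5 of 6 shEGR1 libraries lay above all controls. CCNB2, NEK2 and CDC25C had differences of -0.01, -0.11 and -0.02.

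The 6 checkpoint and anaphase genes had a median difference of -0.05, and none passed. BUB1, a kinase of the spindle checkpoint, read 52.1, 52.8 and 45.5 FPKM with shEGR1#8, 53.9, 54.5 and 48.2 FPKM with shEGR1#9, and 56.9, 59.3 and 54.7 FPKM in controls. All 6 shEGR1 libraries were below all controls, narrowly in the case of 54.5 against 54.7 FPKM, and the difference of -0.15 did not pass (limma adjusted p = 0.182). CDC20, which turns on the anaphase-promoting complex, had the highest mean of the 40 in OCI-LY10. It read 150.0, 124 and 172 FPKM with shEGR1#8, 132, 135 and 144 FPKM with shEGR1#9, and 149.7, 139.9 and 144 FPKM in controls (difference -0.02, interval -0.23 to 0.18, limma adjusted p = 0.897). The spread of CDC20 inside shEGR1#8 was wider than any distance between group means. TTK, the kinase MPS1 that starts checkpoint signalling, read 37.5, 29.6 and 26.6 FPKM with shEGR1#8, 29.8, 29.4 and 30.8 FPKM with shEGR1#9, and 30.8, 32.6 and 33.8 FPKM in controls (difference -0.08, limma adjusted p = 0.596). PTTG1, securin, the inhibitor of the protease that parts sister chromatids, read 104, 82.0 and 93.4 FPKM with shEGR1#8, 90.9, 90.7 and 103 FPKM with shEGR1#9, and 82.3, 88.0 and 94.3 FPKM in controls (difference 0.09, limma adjusted p = 0.529). Both genes overlapped between groups. PTTG1 is uncertain, since fragments may be shared with its near-identical copies. BUB1B, the BUBR1 checkpoint protein, and UBE2C, a ubiquitin-conjugating enzyme of the anaphase-promoting complex, had differences of -0.07 and 0.01.

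**Figure D3:**
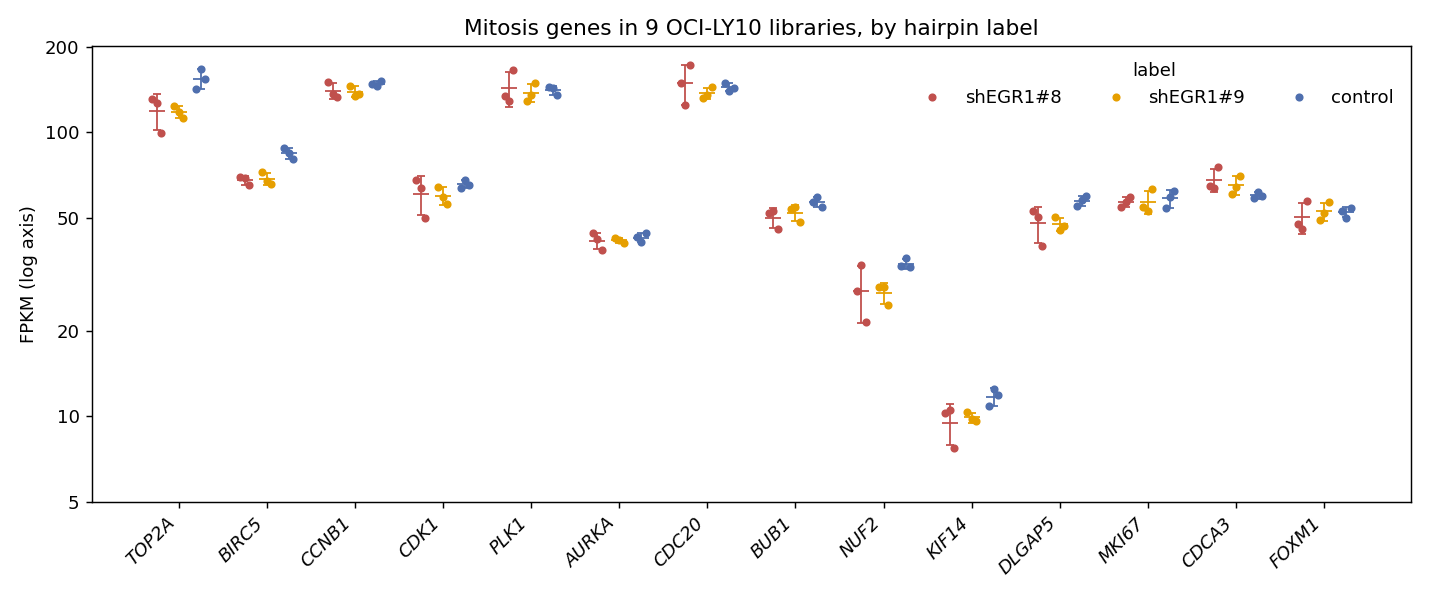
FPKM (vertical log axis) of 14 mitosis genes in each OCI-LY10 library; points are libraries, and bars are the mean ± SD of the 3 libraries labelled shEGR1#8 (red), shEGR1#9 (orange) and control (blue). The shEGR1 points of TOP2A, BIRC5, BUB1, KIF14 and DLGAP5 all lie below the control points, and those of PLK1, AURKA, CDC20, MKI67 and FOXM1 overlap with them.

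The kinetochore genes, whose proteins tie chromosomes to microtubules, had the lowest median of the role groups with more than 2 genes, -0.18 over 5 genes, all 5 below 0 and none passing. NUF2, a subunit of the microtubule-binding NDC80 complex, read 27.5, 34.0 and 21.4 FPKM with shEGR1#8, 28.6, 28.5 and 24.6 FPKM with shEGR1#9, and 33.7, 36.1 and 33.6 FPKM in controls. Only shEGR1#8 replicate 2 lay inside the control range. The difference was -0.33 (interval -0.61 to -0.05, limma adjusted p = 0.131), and without that library NUF2 passed (limma adjusted p = 0.0295). NDC80, its partner subunit, read 29.5, 31.2 and 23.8 FPKM with shEGR1#8, 31.0, 30.5 and 27.2 FPKM with shEGR1#9, and 30.5, 31.8 and 32.6 FPKM in controls (difference -0.13, limma adjusted p = 0.356). CENPA, the histone H3 variant that marks centromeres, read 28.3, 39.1 and 30.4 FPKM with shEGR1#8, 35.6, 36.7 and 29.5 FPKM with shEGR1#9, and 37.4, 38.5 and 36.4 FPKM in controls (difference -0.18, limma adjusted p = 0.327). NDC80 and CENPA overlapped between groups. CENPE, a kinetochore motor, read 14.8, 16.4 and 10.8 FPKM with shEGR1#8, 14.7, 14.4 and 13.7 FPKM with shEGR1#9, and 13.9, 18.1 and 16.5 FPKM in controls, with overlap (difference -0.18, interval -0.46 to 0.09, limma adjusted p = 0.369). CENPF, a large kinetochore protein, had a difference of -0.22 (limma adjusted p = 0.201) and passed without shEGR1#8 replicate 2 (limma adjusted p = 0.0422). For NUF2 and CENPF that library was the highest of its group, so leaving it out was bound to widen the difference. Without it 412 of all genes fell, against 288 with all 9 libraries.

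The 6 kinesins, motors that build and shape the spindle, had a median of -0.07, and none passed. KIF14, a motor of cytokinesis, read 10.2, 10.5 and 7.71 FPKM with shEGR1#8, 10.3, 9.74 and 9.59 FPKM with shEGR1#9, and 10.8, 12.4 and 11.9 FPKM in controls, and the groups did not overlap (difference -0.25, interval -0.46 to -0.04, limma adjusted p = 0.126). KIF2C, which takes microtubules apart at their ends, read 56.4, 55.4 and 66.7 FPKM with shEGR1#8, 52.4, 53.1 and 55.8 FPKM with shEGR1#9, and 59.3, 55.9 and 59.5 FPKM in controls, with overlap (difference -0.04, limma adjusted p = 0.705). KIF11, the motor that pushes spindle poles apart, KIF23, KIF4A and KIF20A had differences of -0.19, -0.09, -0.06 and 0.07. KIF4A is uncertain, since fragments may be shared with the near-identical KIF4B.

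The 7 spindle genes had a median of -0.12, and in 3 of them, DLGAP5, HMMR and TPX2, the groups did not overlap. DLGAP5, which stabilises microtubules near chromosomes, read 52.9, 50.4 and 39.9 FPKM with shEGR1#8, 50.2, 45.2 and 46.9 FPKM with shEGR1#9, and 55.0, 57.7 and 59.6 FPKM in controls (difference -0.27, interval -0.47 to -0.07, limma adjusted p = 0.0917). Without shEGR1#8 replicate 3 the spread was smaller and DLGAP5 passed (difference -0.21, limma adjusted p = 0.0316). HMMR, which anchors spindle poles, read 81.2, 81.3 and 56.9 FPKM with shEGR1#8, 76.6, 74.4 and 68.5 FPKM with shEGR1#9, and 82.5, 88.4 and 87.2 FPKM in controls (difference -0.24, interval -0.49 to 0.01, limma adjusted p = 0.205). TPX2, the activator of AURKA on the spindle, read 89.6, 84.8 and 80.2 FPKM with shEGR1#8, 85.9, 86.3 and 86.7 FPKM with shEGR1#9, and 90.7, 90.4 and 93.2 FPKM in controls (difference -0.09, interval -0.20 to 0.01, limma adjusted p = 0.240). In all 3 genes the distance to the nearest control was small beside the spread of shEGR1#8. NUSAP1, a spindle microtubule-binding protein, read 53.0, 59.96 and 48.3 FPKM with shEGR1#8, 58.8, 54.5 and 57.4 FPKM with shEGR1#9, and 58.6, 59.5 and 61.9 FPKM in controls, with overlap (difference -0.12, limma adjusted p = 0.307). ASPM, CKAP2L and PRC1 had differences of -0.21, -0.04 and 0.05.

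Of the cytokinesis genes, ECT2, the exchange factor that switches on RhoA at the division furrow, read 26.0, 25.3 and 20.7 FPKM with shEGR1#8, 24.9, 23.8 and 22.4 FPKM with shEGR1#9, and 26.3, 29.9 and 27.1 FPKM in controls. The groups did not overlap, and the difference of -0.21 did not pass (interval -0.40 to -0.03, limma adjusted p = 0.138). ANLN, anillin, the scaffold of the furrow, had a difference of -0.06. FOXM1, the forkhead factor that activates mitosis genes in G2, read 47.5, 45.7 and 57.3 FPKM with shEGR1#8, 49.3, 51.9 and 56.8 FPKM with shEGR1#9, and 52.7, 50.1 and 54.3 FPKM in controls. Its groups overlapped (difference -0.03, interval -0.21 to 0.15, limma adjusted p = 0.830).

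The direct test between the hairpins found no difference among the 40 genes. With shEGR1#9 against shEGR1#8, 0 of 40 passed limma, also 0 at an unadjusted p under 0.05, beside 0.0% of all genes tested (2.52% at an unadjusted p under 0.05). The fitted differences ran from -0.14 (KIF2C) to 0.09 (NUSAP1), and their 95% intervals reached as far as -0.34 and 0.36 log2 units. A p that misses the threshold does not show that the hairpin groups are alike.

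The libraries of OCI-LY10 differed in how far they strayed from their own group. Set against the other libraries of its group, shEGR1#8 replicate 3 had 27 of the 40 genes lower, from -0.51 for HMMR to 0.36 for AURKB in log2 units. That count did not set it apart: control replicate 1 had 30 genes lower and shEGR1#9 replicate 2 had 25. The spread of the deviations did. Their SD over the 40 genes was 0.261 in shEGR1#8 replicate 3, against 0.0660 to 0.206 in the other 8 libraries. Over all genes it was 0.326, against 0.196 to 0.279. In that library PLK1 (166 FPKM), CDC20 (172 FPKM), KIF2C (66.7 FPKM) and CDCA3 (75.3 FPKM) had their highest values of the 9. TOP2A, NUF2, KIF14, DLGAP5, ECT2 and HMMR had their lowest of the 9 there. Without it, 3 of the 40 genes passed, BIRC5, TOP2A and DLGAP5, all lower, and the median difference was -0.08. The share of all genes that fell was 4.13% without it, against 2.71% with all 9 libraries.

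**Figure D4:**
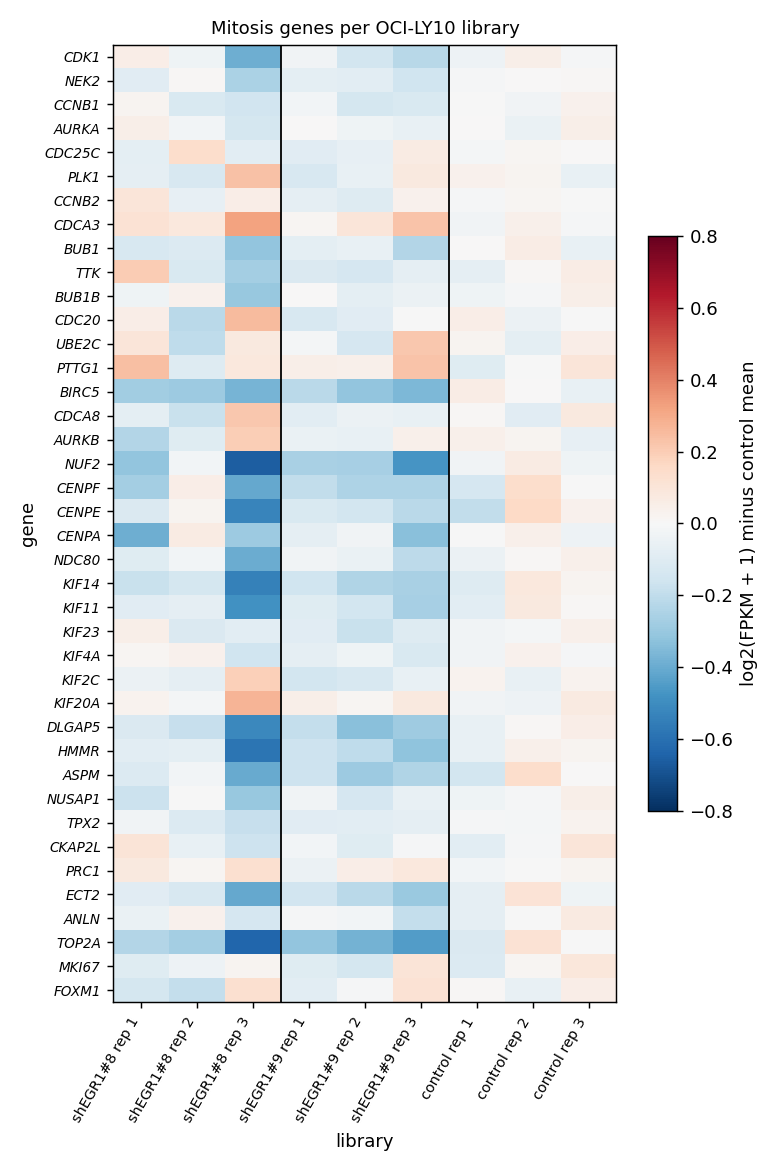
Log2(FPKM + 1) of each mitosis gene (rows, by role) in each OCI-LY10 library (columns) minus the control mean; blue is lower and red is higher. The row of TOP2A is blue in all 6 shEGR1 columns, and the column of shEGR1#8 replicate 3 holds both the deepest blue and the deepest red cells.

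Levels were set side by side per gene length. In OCI-LY10 the highest means over 9 libraries were those of CDC20 (144 FPKM), CCNB1 (143 FPKM), PLK1 (141 FPKM) and TOP2A (131 FPKM), whose ranges overlap. The lowest were KIF14 (10.4 FPKM), ANLN (5.79 FPKM) and CDC25C (4.40 FPKM), the phosphatase that activates CDK1. These 3 did not overlap with each other. Under the TMD8 and SUDHL2 labels UBE2C was highest (means 161 and 192 FPKM) and CDC25C lowest (4.30 and 4.11 FPKM). HMMR averaged 77.5 FPKM in OCI-LY10, against 31.1 and 15.8 FPKM under the TMD8 and SUDHL2 labels, and AURKB 46.8, against 89.7 and 90.2 FPKM. Each label has its own table, possibly with its own normalization. Short RNAs took 0.470% to 0.612% of the FPKM of OCI-LY10 libraries, against 36.3% to 61.5% under the TMD8 and SUDHL2 labels. Levels across labels are therefore descriptions.

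Under the TMD8 label, 10 of the 40 mitosis genes were at least 1.5-fold lower with both hairpin libraries than in the control library, and 1, MKI67, was at least 1.5-fold higher. Across all 11078 genes at 1 FPKM or more, 12.7% were lower and 7.84% higher by this rule, 20.5% in all. There is 1 library per group, so the differences have no replicate check and no test, and each hairpin is set against the same control. Differences are in log2(FPKM + 1), relative to the median of all genes. The median of the 40 genes, averaged over the hairpins, was -0.34, against 0.01 for all genes. The 10 genes are CDK1, TTK, PTTG1, CENPA, NDC80, NUF2, DLGAP5, HMMR, NUSAP1 and ECT2.

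CDK1 differed most, with 45.04 FPKM in the shEGR1#8 library and 36.4 FPKM in the shEGR1#9 library, against 142 FPKM in the control (differences -1.53 and -1.92). HMMR read 19.5 and 17.7 FPKM, against 56.0 FPKM (-1.37 and -1.59). NUF2 read 13.2 and 14.0 FPKM, against 38.4 FPKM (-1.37 and -1.38). In these 3 genes both hairpin libraries were far below the control and close to each other. Of the checkpoint genes, TTK read 20.6 and 15.4 FPKM, against 42.2 FPKM in the control, and PTTG1 80.4 and 81.3 FPKM, against 174 FPKM. Of the kinetochore genes, NDC80 read 26.6 and 24.5 FPKM, against 52.3 FPKM, and CENPA 12.1 and 15.3 FPKM, against 26.8 FPKM. The spindle genes DLGAP5 (22.6 and 22.1 FPKM, against 46.0 FPKM) and NUSAP1 (42.1 and 47.1 FPKM, against 88.0 FPKM) and the cytokinesis gene ECT2 (12.4 and 12.9 FPKM, against 23.6 FPKM) were lower by similar factors. None of the 6 kinesins and none of the passenger complex genes met the rule, nor did CCNB1, with 91.6 and 99.98 FPKM, against 148 FPKM (-0.58 and -0.55).

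MKI67 read 79.1 FPKM in the TMD8 shEGR1#8 library and 65.9 FPKM in the shEGR1#9 library, against 42.1 FPKM in the control (1.00 and 0.65). CENPF read 67.7 and 33.9 FPKM, against 24.3 FPKM (1.55 and 0.48), and did not meet the rule with shEGR1#9. BIRC5 read 43.4 and 43.6 FPKM, against 57.9 FPKM (-0.30 and -0.39), and TOP2A 81.2 and 75.9 FPKM, against 108 FPKM (-0.30 and -0.49), both lower with each hairpin label but within 1.5-fold. PLK1 (80.1 and 114 FPKM, against 109.9 FPKM), AURKA (50.6 and 49.7 FPKM, against 66.4 FPKM) and FOXM1 (25.9 and 36.7 FPKM, against 25.8 FPKM) also stayed within it.

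These TMD8 values rest on the control library that stood apart, and without it the label allows no comparison. In the SUDHL2 control library CDK1 read 44.2 FPKM, HMMR 15.7 FPKM, NUF2 15.5 FPKM and MKI67 69.8 FPKM. For these 4 genes, chosen after their values were seen, the TMD8 hairpin libraries lay nearer to the SUDHL2 control than to the TMD8 control. Across 9529 genes the TMD8 hairpin libraries correlated with the SUDHL2 libraries at 0.958 to 0.977 and with the TMD8 control at 0.956 and 0.957, while the TMD8 control correlated with the SUDHL2 libraries at 0.919 to 0.957. A mix-up of libraries between these labels was not tested. In every TMD8 difference, above and below, such a mix-up cannot be told apart from a difference between hairpin and control.

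Under the SUDHL2 label 0 of the 40 genes were past 1.5-fold with both hairpin libraries, beside 2.0% of 11023 genes lower and 3.76% higher, 5.77% in all. The median of the 40 was -0.15, against -0.00 for all genes. Averaged over the hairpins, CDK1 and NUF2 differed most and by nearly the same amount. CDK1 read 35.9 FPKM (shEGR1#8) and 27.8 FPKM (shEGR1#9), against 44.2 FPKM in the control (-0.30 and -0.66). NUF2 read 14.5 and 8.20 FPKM, against 15.5 FPKM (-0.10 and -0.85), and CENPE 9.36 and 6.79 FPKM, against 10.7 FPKM (-0.19 and -0.60). In all 3 genes the shEGR1#9 library was the lower of the hairpin libraries. BIRC5 read 39.7 and 38.5 FPKM, against 47.4 FPKM (-0.26 and -0.30), and TOP2A 68.9 and 70.3 FPKM, against 83.0 FPKM (-0.27 and -0.24). Both genes were thus lower than control with each hairpin label under all 3 labels, by fitted or single-library differences between -0.24 and -0.49. They passed a test only in OCI-LY10, the one label with replicates, and their TMD8 values rest on the control that stood apart. This was not particular to them. Other members were also lower with each hairpin label under all 3 labels, among them CDK1, CCNB1, AURKB, NUF2, CENPA, CENPE, NUSAP1, DLGAP5 and ECT2. This list is not complete. Neither the members nor the share of all genes lower in this way were counted. MKI67 read 61.8 and 64.8 FPKM, against 69.8 FPKM (-0.18 and -0.11).

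**Figure D5:**
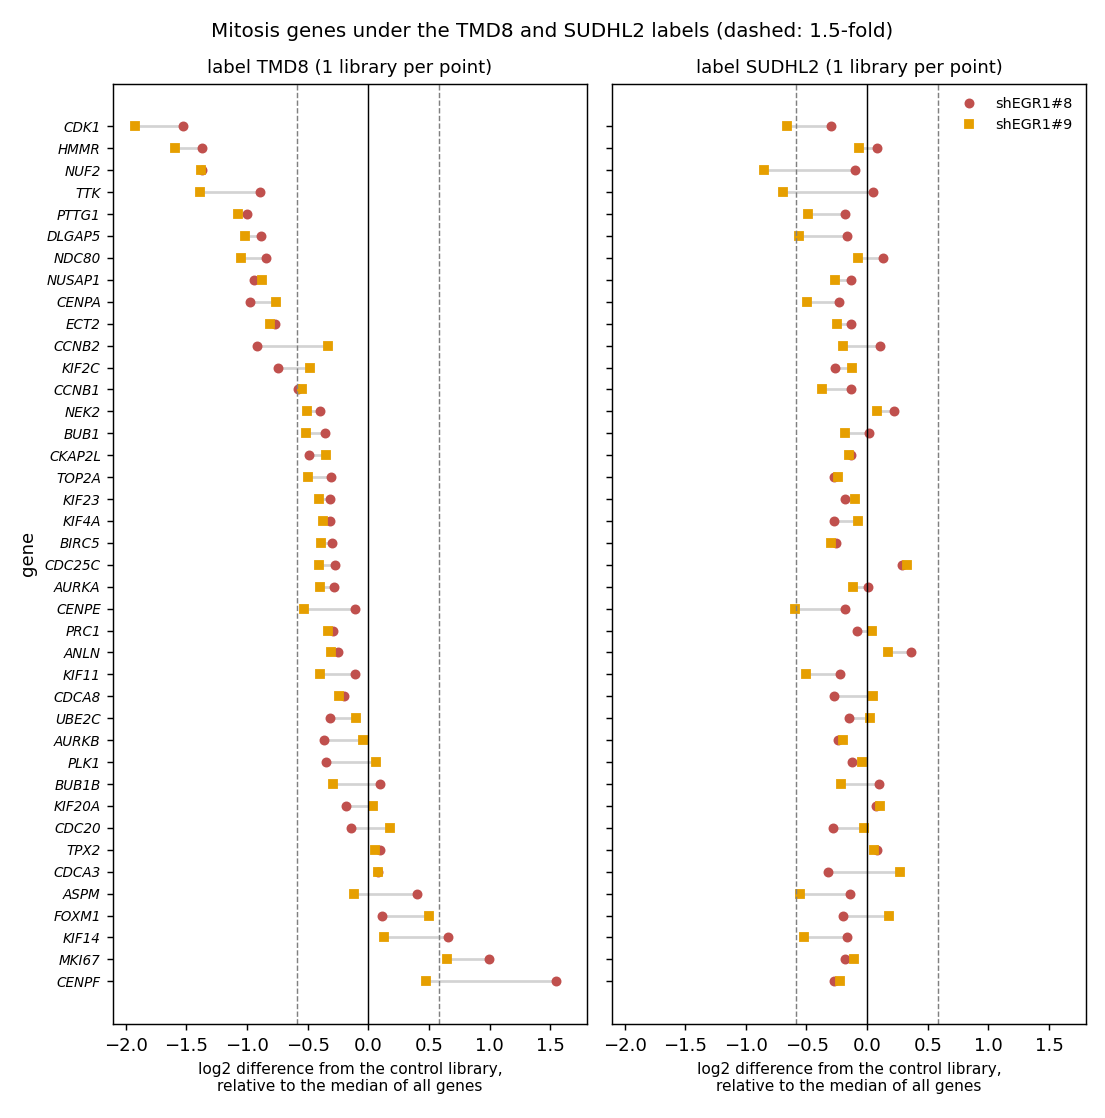
Log2(FPKM + 1) difference of the shEGR1#8 (circles) and shEGR1#9 (squares) library from the control library under the TMD8 label (left) and the SUDHL2 label (right), relative to the median of all genes; each point is 1 library and dashed lines mark 1.5-fold. Under TMD8, CDK1, HMMR and NUF2 lie lowest and MKI67 and CENPF highest, and under SUDHL2 no gene has both points outside the same dashed line.

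Other genes of mitosis gave similar counts in OCI-LY10. Of 95 listed, 94 were tested, with a median of -0.09. At an unadjusted p under 0.05, 19 were lower and 1 higher, where the shares of all genes are 9.28% and 16.8%. By limma 5 fell and 0 rose, beside 2.71% and 5.84% of all genes. The 5 were NCAPG2, a condensin subunit (-0.28, limma adjusted p = 0.00985), CDCA5, or sororin, which protects sister chromatid cohesion (-0.30, 0.0221), MIS18A, which loads CENPA at centromeres (-0.29, 0.0454), MAD2L1, the checkpoint protein that holds back CDC20 (-0.35, 0.0463), and ANAPC5, a subunit of the anaphase-promoting complex (-0.16, 0.0465). MAD2L1 read 87.2, 87.1 and 74.1 FPKM with shEGR1#8, 88.6, 82.7 and 70.5 FPKM with shEGR1#9, and 102, 115 and 96.6 FPKM in controls. It was also past 1.5-fold lower under TMD8 (31.1 and 33.7 FPKM, against 124 FPKM) and SUDHL2 (30.003 and 26.9 FPKM, against 50.4 FPKM). CCNA2, the cyclin of S phase and G2, differed by -0.08 in OCI-LY10 (limma adjusted p = 0.540). Under TMD8, 26 of 93 of these genes were past 1.5-fold lower and 0 higher, and under SUDHL2 3 lower and 1 higher. The shares of all genes were 12.7% and 7.84% under TMD8, and 2.0% and 3.76% under SUDHL2. The TMD8 values here, and those of the lists below, rest on the control that stood apart.

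Of 27 regulators of mitosis genes, 1 rose and 5 fell in OCI-LY10, beside 5.84% and 2.71% of all genes tested. CDKN1A, an inhibitor of cyclin-dependent kinases whose induction is known to switch mitosis genes off through the DREAM complex, read 47.3, 47.3 and 55.0 FPKM with shEGR1#8, 44.5, 48.2 and 49.97 FPKM with shEGR1#9, and 25.2, 23.3 and 21.7 FPKM in controls. All shEGR1 libraries lay far above all controls (log2 difference 1.03, SE 0.0719, limma adjusted p = 0.000182). CDKN1A was also past 1.5-fold higher under TMD8 (39.5 and 54.2 FPKM, against 26.3 FPKM) and SUDHL2 (62.6 and 66.5 FPKM, against 22.6 FPKM). SKP2, part of a ubiquitin ligase that removes another inhibitor of these kinases, read 6.33, 6.71 and 4.72 FPKM with shEGR1#8, 5.84, 5.77 and 5.68 FPKM with shEGR1#9, and 11.4, 11.2 and 10.8 FPKM in controls (-0.83, limma adjusted p = 0.00105). The others that fell were E2F2 (-0.35, limma adjusted p = 0.00585), an activator of S phase genes, the cyclin CCND2 (-0.33, 0.00571), E2F5 (-0.33, 0.0276), a partner of RB-like proteins, and NFYA (-0.27, 0.00716), the DNA-binding subunit of NF-Y. NFYA read 28.3, 27.1 and 27.7 FPKM with shEGR1#8, 26.3, 26.1 and 26.6 FPKM with shEGR1#9, and 32.4, 32.1 and 34.1 FPKM in controls, without overlap. MYBL2, the activator that joins the MuvB core in S phase, read 271, 294 and 319 FPKM with shEGR1#8, 286, 319 and 312 FPKM with shEGR1#9, and 374, 348 and 341 FPKM in controls. All 6 shEGR1 values of MYBL2 were below all controls, and it did not pass (-0.24, limma adjusted p = 0.0531), but did with median-ratio scaling (0.0362). Under TMD8, 5 of the 27 regulators were past 1.5-fold lower (12.7% of all genes) and 2 higher, CDKN1A and CCND2 (7.84%). Under SUDHL2 0 were lower (2.0%) and 1, CDKN1A, was higher (3.76%). CCND2, which fell in OCI-LY10, thus went the other way under TMD8 (1.33 and 1.09), and was lower under SUDHL2 (-0.42 and -0.33). E2F2 was also higher with both TMD8 hairpin libraries (0.42 and 0.59), whereas SKP2, E2F5 and NFYA were lower with both.

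The DNA replication list, set beside the mitosis genes as an earlier stage of the cycle, had a median of -0.08. At an unadjusted p under 0.05, 15 were lower and 0 higher, against 9.28% and 16.8% of all genes. By limma 4 of 50 genes fell and 0 rose, beside 2.71% and 5.84% of all genes. GMNN, geminin, which stops origins from being licensed again, fell by 0.32 (limma adjusted p = 0.00891), the GINS complex gene GINS4 by 0.29 (0.0376), the origin recognition gene ORC1 by 0.23 (0.0165) and the helicase gene CDC45 by 0.20 (0.0314). Under TMD8, 12 of 50 were past 1.5-fold lower and 1 higher, beside 12.7% and 7.84% of all genes. Under SUDHL2 4 were lower and 0 higher, beside 2.0% and 3.76%. Of the 15 genes called in these 3 lists, CDKN1A, SKP2, E2F2 and CCND2 passed without each of the 9 libraries in turn. The other 11 lost the call without at least 1 library, each of them without control replicate 3, with limma adjusted p up to 0.176 for MAD2L1. With no filter on low values MAD2L1, MIS18A and GINS4 did not pass (limma adjusted p = 0.0759, 0.0671 and 0.0549), nor did MAD2L1 and ANAPC5 with quantile normalization (0.0593 and 0.0709). Whether the mitosis genes differ from these lists was not tested.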

How the data were processed

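RNA was measured in 15 libraries of 3 lymphoma cell lines, grouped by title and treatment label. No label or header names a unit. The deposited values were taken as FPKM: they have decimals, their sums differ between libraries, and StringTie, which writes FPKM, is among the tools listed. Per the submitters' processing notes, HISAT, StringTie and Bowtie2 were used with the genome build hg19. Tool versions, roles, annotation, strand and depth were not given in the sources used here, so depth is unknown and no counting interval is printed. Per the labels' protocols, cDNA came from a TruSeq kit. Whether the libraries of a group are separate cultures is not labelled. The p-values therefore cover the spread between libraries alone, possibly a technical one.

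Lines with a repeated name (4, 10 and 10 in OCI-LY10, TMD8 and SUDHL2) were left out. For SUDHL2, a joined line and the 429 lines after it, which equal the end of the TMD8 data, were left out too.

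In OCI-LY10, genes with at least 1 FPKM in at least 3 of 9 libraries were tested (10612 genes, all 40 mitosis genes among them) as log2(FPKM + 1) in limma 3.58.1 (R 4.3.3) with 3 group means and limma's trend option. Benjamini-Hochberg adjustment ran over all genes tested, with a threshold of 0.05. Fold changes on this scale understate the change of low genes. Under the TMD8 and SUDHL2 labels, genes with a mean of 1 FPKM or more were compared with no test, and called at 1.5-fold in the same direction with both hairpins, relative to the median of all genes (−0.11 and −0.01 for the TMD8 hairpins). Alternatives were a pseudocount of 0.1, no filter, quantile and median-ratio scaling, a replicate block, array weights and leaving out each library. The fit was tested on simulated data. Python 3.11.15, numpy 2.4.6, pandas 2.3.3 and matplotlib 3.10.9 were used otherwise.

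Promoters and motifs came from RefSeq windows (GRCh38.p14), matched by symbol for 34 of the 40 genes; AURKA, TTK, UBE2C, BIRC5, TPX2 and FOXM1 were not matched. No other coordinates are used. Per-library values are given for 24 of the 40 genes: those called, the highest and the most changed in each of 9 roles, MKI67, CCNB1, CDK1, PLK1, AURKA and FOXM1, and those called or most shifted under TMD8 and SUDHL2. Of other lists, called genes are named, with CDKN1A, SKP2, CCNA2 and MYBL2. The genes, the lists and the tests were chosen with earlier results of these data known.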

Additional observations from a re-analysis of the deposited data

Results flagged for a closer look

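MKI67 had differences of opposite sign under the labels with 1 library per group. Averaged over both hairpin libraries, its log2 difference from control was 0.823 under the TMD8 label and -0.145 under the SUDHL2 label, and both hairpin libraries lay on the same side of control within each label. The SUDHL2 value lay inside the quartiles of all genes under that label (-0.20 and 0.21) and near the median of the 40 genes there (-0.15). The difference between the labels was not tested. In OCI-LY10, where the groups have 3 libraries, MKI67 differed by -0.04 (95% interval -0.20 to 0.12, limma adjusted p = 0.745). The TMD8 control, on which the first value rests, stood apart from the other libraries of its label, and its part in the difference was not tested.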

How the results depend on the processing

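No called result changed sign under the alternatives run. The counts of 11 mitosis genes past 1.5-fold under the TMD8 label and 0 under SUDHL2 were the same with a pseudocount of 0.1, with no filter and not set relative to the median (TMD8 medians -0.35, -0.40 and -0.40). With both hairpin labels in OCI-LY10, 1 mitosis gene in place of 2 passed with no filter on low values and 1 with quantile normalization. With array weights 1914 genes in place of 908 passed, and the median of the 40 genes was -0.12 with median-ratio scaling. For shEGR1#8 the median of the 40 was -0.11 with median-ratio scaling. For shEGR1#9 it was -0.12 with that scaling, and with array weights 7 of the 40 and 1950 genes passed, against 1 and 540. For shEGR1#9 against shEGR1#8, 1 gene passed with no filter and the median of the 40 was -0.042 with array weights. The causes of these changes were not tested.

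Leaving out each library in turn, 0 to 4 of the 40 genes and 285 to 1312 of all genes passed with both labels (median -0.11 to -0.07), 0 to 2 and 134 to 696 with shEGR1#8 (-0.12 to -0.061), 0 to 4 and 144 to 1143 with shEGR1#9 (-0.10 to -0.08), and 0 and 0 to 9 between the hairpins (-0.050 to 0.036). The counts for both labels were lowest without a control (314, 315 and 285 without replicate 1, 2 and 3).

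By their deviations, same-numbered libraries did not pair with control (correlations -0.188 to 0.0597), whereas those of shEGR1#8 and shEGR1#9 correlated at 0.173, 0.134 and 0.260. Differently numbered libraries of the 2 hairpins correlated at -0.269 to 0.146, the highest above the 0.134 of a same-numbered pair. With control, differently numbered libraries reached 0.184. Nothing in the labels says that a number marks a shared culture or day. With a replicate block the same 2 mitosis genes passed with both labels, 0 passed between the hairpins, and 349 (shEGR1#8) and 351 (shEGR1#9) genes passed in place of 566 and 540. Of the other named genes, ANAPC5, CDC45 and GINS4 did not pass with the block (limma adjusted p = 0.0800, 0.0623 and 0.0531). EGR1, higher than in the same-numbered control in all 6 pairs, had a limma adjusted p of 0.0540 with the block in place of 0.349.

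Across single named genes and alternatives, 2325 results kept their side of the threshold, 151 lost it and 44 gained it. With 3 libraries per group and 1 per group elsewhere, small differences cannot be resolved, and read depth is unknown.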
